A study of Saccharomyces cerevisiae with 6 samples.

Results

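The proteasome is the large protease that degrades proteins tagged with ubiquitin. The genes described here are those of its subunits, of 5 factors that assemble or cap it and of RPN4, the transcription factor that activates them, in budding yeast. They were chosen by systematic name: 14 genes of the 20S core, 19 of the 19S regulatory particle, and RPN4, UMP1, BLM10, ADD66, IRC25 and POC4. All 39 were present among the 7126 features of the deposited table, and all 39 passed the low-value filter of a mean of at least 1 RPKM (reads scaled to gene length and library size) that left 6731 features to test.

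RNA was sequenced from 3 libraries of mms21RINGD yeast, so labelled for the MMS21 allele it carries, and from 3 libraries of wild type (WT) of the strain W303. The product of MMS21 is a SUMO ligase, which links the ubiquitin-like modifier SUMO to its targets. All cells were in exponential growth in YPD with CSM added (rich medium with amino acids), and ribosomal RNA was depleted from total RNA. The labels name no background for the mutant strain beyond its allele, and do not say whether replicates were separate cultures, so the p-values cover only library-to-library spread, which may be technical.

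In the proteasome, the 20S core is a barrel of stacked rings whose beta subunits hold the protein-cutting sites. The 19S particle sits on its ends, and there receptors on its base recognise ubiquitin, a lid enzyme removes it and ATPases unfold the substrate. Rpn4 binds an element in the promoters of these genes, known as the proteasome-associated control element, and is itself degraded by the proteasome, so that yeast makes more proteasomes when the existing ones fall short.

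That element, with the letters GGTGGCAAA, was searched on both strands in the 300 bases before the start codon, which RefSeq takes as the start of a yeast gene. As the element is known from the promoters of these genes, a high share there was given in advance. The element stood in 27 of the 39 windows, or 69.2%, against 73 of 6001 windows (1.22%) over all protein-coding genes of the nuclear genome. The 20S core had it in 12 of 14 windows and the 19S particle in 15 of 19. None of the windows of RPN4 and the assembly factors held it (0 of 6). With any base in the first position (NGTGGCAAA) all 14 core genes and 16 of the 19S genes had a match, against 159 of all windows (2.65%). Of the 27 exact matches 19 lay on the strand of the gene and 8 on the other, and their near edge was 76 to 175 bases before the start codon, with a median of 112. The sites below, from the RefSeq S288C reference (R64, the assembly called sacCer3) and not from the sequenced strain, show the exact element, its reverse complement and the variant with A in the first position. Capitals mark the 9 bases of the element, and each line reads 5′ to 3′ on the strand of the gene. The first 4 belong to members with a high log2 difference in their role group, RPN3 is the exact-match gene with the smallest, SCL1 shares its site with the gene on its other side, and the last 3 carry the variant.
RPT2 (chrIV:437906-437934, plus strand): gtttttctccGGTGGCAAAtgtctctttt
RPN1 (chrVIII:164838-164866, minus strand): tgtgttttacGGTGGCAAAaggcgagcac
PRE7 (chrII:141150-141178, plus strand): aaactcaaagGGTGGCAAAaacaagcggt
PRE1 (chrV:177683-177711, plus strand): aaatctttacGGTGGCAAAaaataaagaa
RPN3 (chrV:196843-196871, plus strand): acgaaaaacaTTTGCCACCcaagaaagag
SCL1 (chrVII:475337-475365, minus strand): cacacaccaaTTTGCCACCgtaaggatag
PRE5 (chrXIII:901552-901580, plus strand): cctattatagAGTGGCAAAattaaaaatt
PUP1 (chrXV:631891-631919, minus strand): aacccggccgAGTGGCAAAataccaaaaa
RPN8 (chrXV:817085-817113, minus strand): gggatacctcAGTGGCAAAtcgttactca

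Libraries held 19264738 to 24625301 reads, and the 39 genes took 0.492% to 0.509% of them in the mutant and 0.309% to 0.410% in WT. MMS21 itself measured 14.3 ± 1.99 RPKM in mms21RINGD and 2.82 ± 0.562 RPKM in WT (SD, n = 3 each), a level that does not show which part of the gene was read. Over all 6731 features 2875 were higher and 732 lower in the mutant (limma, adjusted p under 0.05, which is what a call means below). The values were also rescaled in 2 ways. After scaling by the median of ratios the split was 1713 higher (25.4%) and 1821 lower (27.1%), and after quantile normalization 1369 higher (20.3%) and 2330 lower (34.6%). The median log2 difference of all features was 0.24 as deposited, -0.00096 by the median of ratios and -0.10 by quantiles. WT replicate 1 stood apart from the other WT libraries. Its median squared difference from replicates 2 and 3 was 15.3 and 20.4 times that of counting noise. Between replicates 2 and 3 it was 2.08 times. Of all features 64.7% were higher in WT replicate 1 than in both other WT libraries.

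Nearly the whole set of proteasome subunit genes was higher in mms21RINGD, each by a modest amount. Of the 39 genes 35 rose and 1 fell, against 42.7% of all features that rose and 10.9% that fell. The median log2 difference was 0.55, or 0.31 above the median of all features. The median of ratios left 26 higher calls and quantiles 32. The subunits formed a narrow band, with log2 differences from 0.33 to 0.76 over 33 genes, and the genes that did not rise were SEM1 and 3 assembly factors. The 35 genes that rose were also those whose groups did not overlap, with every mutant library above every WT library, as for 50.1% of all features. In a bulk culture, more RNA in every cell and more cells with a high level cannot be told apart.

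**Figure D1:**
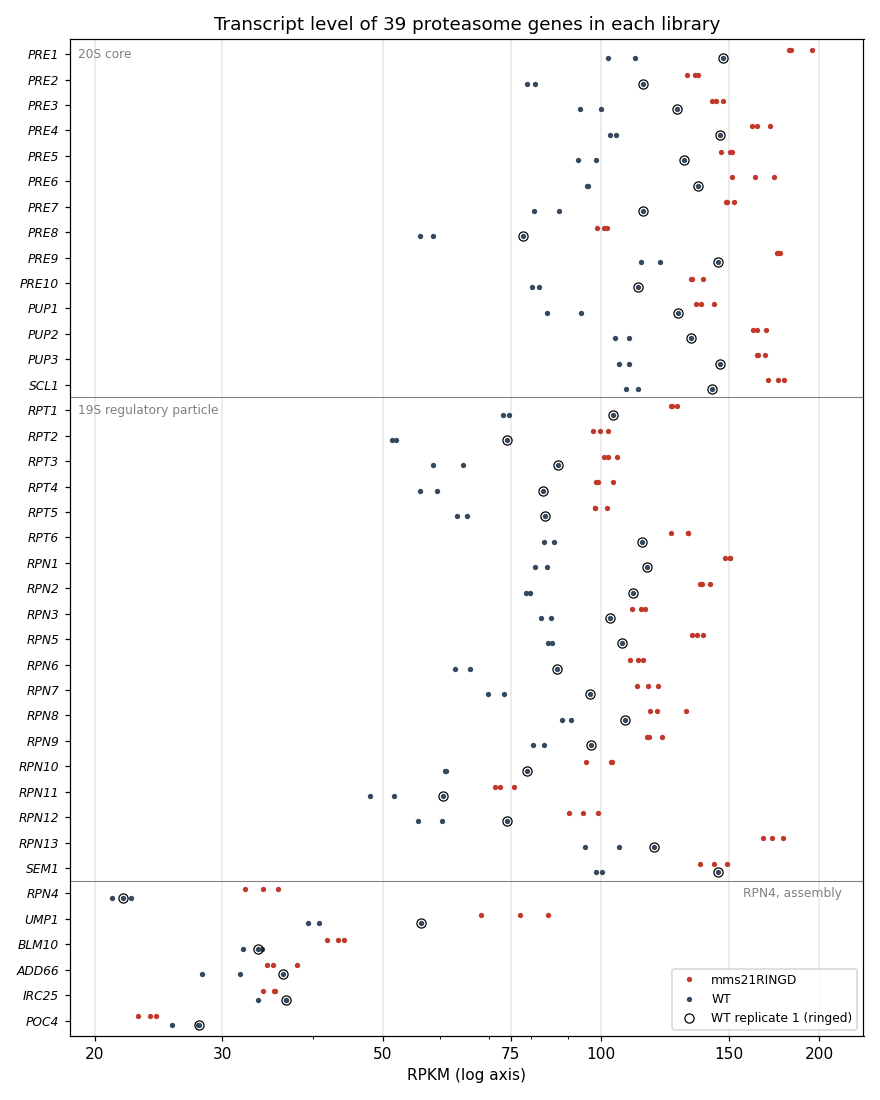
Level of each of the 39 genes in RPKM (log axis), with 3 mms21RINGD points above 3 WT points in each row and WT replicate 1 ringed. In 35 rows every mutant point lies right of every WT point, and WT replicate 1 lies between the mutant points and the other WT points in 33.

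In the alpha ring, the outer ring of the core that gates the entry of substrate, all 7 genes rose, against 42.7% of all features. Their median log2 difference was 0.54. PRE8 (YML092C) had the largest difference of these genes. It measured 102, 98.7 and 101 RPKM in mms21RINGD, against 78.0, 58.6 and 56.2 RPKM in WT, a 1.56-fold difference (log2 difference 0.65 ± 0.12 SE, limma adjusted p = 0.00623). PRE9 (YGR135W), the alpha subunit gene that yeast can live without, stood at 175, 176 and 175 RPKM in the mutant and at 145, 121 and 113 RPKM in WT, a log2 difference of 0.48 ± 0.09 SE (limma adjusted p = 0.00698). Its mutant libraries agreed within an SD of 0.860 RPKM, while its WT libraries spread over an SD of 16.6 RPKM. SCL1, PRE6, PUP2, PRE5 and PRE10 lay between PRE9 and PRE8, with log2 differences from 0.49 for PRE5 to 0.59 for PRE6.

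The inner beta ring also rose in full, with 7 of 7 genes, against 42.7% of all features, and a median log2 difference of 0.50. PRE3, PUP1 and PRE2 encode its active subunits, with caspase-like, trypsin-like and chymotrypsin-like activity in that order. PRE2 (YPR103W) measured 131, 136 and 135 RPKM in mms21RINGD, against 114, 81.1 and 79.1 RPKM in WT (log2 difference 0.57 ± 0.14 SE, limma adjusted p = 0.0157). The other active subunits had the smallest differences of the ring, 0.44 ± 0.11 SE for PRE3 (limma adjusted p = 0.0182) and 0.46 ± 0.15 SE for PUP1 (limma adjusted p = 0.0371). Both calls were lost by the median of ratios (0.19 and 0.21) and on leaving out any single library other than WT replicate 1. For PUP1 the lowest mutant library, at 135 RPKM, was close to the highest WT library, at 128 RPKM, and the groups did not overlap. PRE7 and PRE1, of subunits with no active site, had the largest, at 0.68 ± 0.13 SE and 0.64 ± 0.13 SE. PRE1 measured 183, 182 and 195 RPKM in the mutant and 147, 111 and 102 RPKM in WT, and was the highest of all 39 genes in the mutant.

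The number of core calls changed with the libraries used. Leaving out WT replicate 1 kept 14 core calls, with 57.4% of all features then called higher. But 7 core calls were left without mms21RINGD replicate 2, mms21RINGD replicate 3 or WT replicate 2, with 28.5%, 27.6% and 29.5% of all features then called higher. There were 8 without WT replicate 3 (31.7% of all features) and 9 without mms21RINGD replicate 1 (31.6%). The median of ratios left 9 core calls (25.4% of all features) and quantiles 13 (20.3%). PRE3, PRE4, PRE5, PUP1 and PUP3 lost their calls by the median of ratios and on leaving out any single library other than WT replicate 1. PUP1 also lost its call by quantiles. PRE2 lost its call without WT replicate 2 or mms21RINGD replicate 2 or 3, and PRE6 without these or WT replicate 3.

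The 6 Rpt genes encode the ring of ATPases that unfolds substrates and opens the core. All 6 rose, against 42.7% of all features, and their median log2 difference was 0.58. RPT2 (YDL007W), whose product opens the gate of the core, had the largest log2 difference of the 39 genes on the log2(RPKM + 1) scale, just above UMP1. It measured 97.3, 99.6 and 102 RPKM in mms21RINGD, against 74.2, 51.5 and 52.1 RPKM in WT, a 1.68-fold difference (0.76 ± 0.14 SE, limma adjusted p = 0.00572). RPT4, RPT1 and RPT3 followed with log2 differences of 0.61, 0.60 and 0.57, and RPT5 and RPT6 with 0.50 and 0.47. RPT6 lost its call by the median of ratios and without WT replicate 2 or 3 or mms21RINGD replicate 2 or 3. RPT3 lost it without WT replicate 2 or mms21RINGD replicate 1 or 3, and RPT4 without mms21RINGD replicate 3. RPN1 and RPN2, the large scaffold subunits of the base, rose as well, RPN1 to 151, 148 and 151 RPKM in the mutant, against 116, 84.2 and 81.1 RPKM in WT (0.69 ± 0.13 SE, limma adjusted p = 0.00649). With at least 5247 reads in each library, RPN1 was the most deeply read of the subunits.

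In the lid and among the ubiquitin receptors the differences varied more. RPN13 (YLR421C), a ubiquitin receptor on the base, measured 178, 167 and 172 RPKM in mms21RINGD and 118, 95.04 and 106 RPKM in WT (log2 difference 0.70 ± 0.09 SE, limma adjusted p = 0.00121). It had the smallest adjusted p of the subunits, and neither form of the element was in its window. RPN10, another ubiquitin receptor, rose by 0.59 ± 0.11 SE (limma adjusted p = 0.00607). RPN11, the lid enzyme that cuts ubiquitin from substrates, was the lowest of the subunits in both strains, at 71.4, 72.6 and 75.9 RPKM in mms21RINGD, against 60.4, 51.8 and 47.9 RPKM in WT (0.46 ± 0.09 SE, limma adjusted p = 0.00779). Among the structural lid genes RPN6, RPN12, RPN5, RPN7 and RPN9 rose with log2 differences from 0.65 for RPN6 to 0.44 for RPN9.

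RPN8, RPN3 and SEM1 stood at the low end of the 19S genes. RPN8, the partner of RPN11 in the lid, had a log2 difference of 0.35 ± 0.09 SE (limma adjusted p = 0.0195) and RPN3, another lid subunit, one of 0.33 ± 0.09 SE (limma adjusted p = 0.0245), and both calls were lost by the median of ratios (0.10 and 0.073). RPN3 was also not called by quantiles (0.17) or without any single library other than WT replicate 1. RPN8 lost its call without WT replicate 2 or 3 or mms21RINGD replicate 1 or 3 as well. RPN3 measured 110.2, 113 and 115 RPKM in the mutant, against 103, 82.5 and 85.1 RPKM in WT. SEM1, the smallest subunit, which binds the lid and other complexes, measured 137, 143 and 149 RPKM in mms21RINGD, against 145, 98.2 and 100.3 RPKM in WT. Its groups overlapped through WT replicate 1 alone, and it was the only subunit not called (0.34 ± 0.15 SE, 95% interval -0.02 to 0.70, limma adjusted p = 0.0974). Without that library its log2 difference was 0.52 (limma adjusted p = 9.41e-05).

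**Figure D2:**
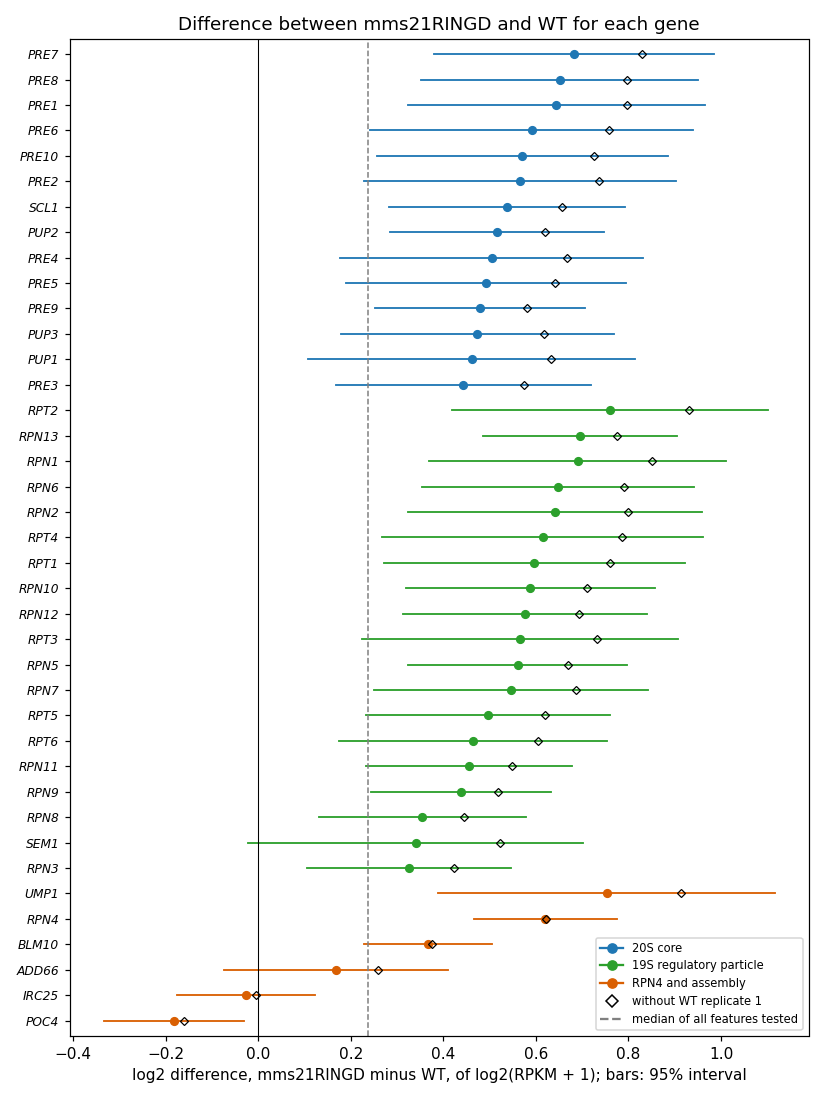
Log2 difference (mms21RINGD minus WT, on the log2(RPKM + 1) scale) of each gene with its unadjusted 95% interval, by role and size, with the value without WT replicate 1 as a diamond and the median of all features, 0.24, as a dashed line. The 33 subunits lie right of that line and POC4 lies left of 0.

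RPN4 and the assembly factors did not move as 1 block. Of these 6 genes 3 rose (RPN4, UMP1 and BLM10) and 1 fell (POC4), against 42.7% and 10.9% of all features, with a median log2 difference of 0.27, only 0.03 above that of all features. RPN4 (YDL020C) rose 1.56-fold, to 32.3, 35.8 and 34.1 RPKM in mms21RINGD, against 21.9, 22.4 and 21.1 RPKM in WT (0.62 ± 0.06 SE, limma adjusted p = 0.000574). This was the smallest adjusted p of the 39 genes, and all WT libraries, replicate 1 included, lay between 21.1 and 22.4 RPKM. UMP1, the chaperone that is enclosed in the maturing core and is its first substrate, measured 68.3, 84.3 and 77.4 RPKM in the mutant and 56.4, 40.8 and 39.3 RPKM in WT (0.75 ± 0.15 SE, limma adjusted p = 0.00754), close to RPT2. BLM10, an activator that caps the core in place of the 19S particle, measured 43.4, 44.2 and 41.9 RPKM in mms21RINGD, against 33.7, 34.0 and 32.0 RPKM in WT (0.37 ± 0.06 SE, limma adjusted p = 0.00303), a call that was lost under both rescalings (0.12 by the median of ratios and 0.094 by quantiles).

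The genes for the chaperones that build the alpha ring parted ways. These proteins work as pairs, IRC25 with POC4 and ADD66 with PBA1. POC4 (YPL144W) was the only one of the 39 genes to fall, measuring 23.0, 23.8 and 24.3 RPKM in mms21RINGD, against 27.9, 27.7 and 25.5 RPKM in WT (log2 difference -0.18 ± 0.06 SE, limma adjusted p = 0.0487). Its groups did not overlap, as for 14.3% of all features in that direction, but the call on the values as deposited is marginal. It was lost with a pseudocount of 0.1 RPKM, with no filter, without the variance trend, with voom, with the totals without structural RNAs and without WT replicate 2 or any single mutant library. Under the rescalings POC4 was called lower with a larger difference, -0.43 by the median of ratios and -0.50 by quantiles. IRC25 (YLR021W) measured 35.5, 34.1 and 35.3 RPKM in the mutant and 36.7, 36.7 and 33.6 RPKM in WT (-0.03 ± 0.06 SE, 95% interval -0.18 to 0.12, limma adjusted p = 0.739), so that a rise of the size seen in the core subunits lay outside its interval. Under the rescalings IRC25 was called lower, at -0.28 by the median of ratios and -0.30 by quantiles. ADD66 measured 34.6, 35.3 and 38.1 RPKM in mms21RINGD, against 36.4, 31.7 and 28.1 RPKM in WT (0.17 ± 0.10 SE, limma adjusted p = 0.198). It was called higher without WT replicate 1 (0.26, limma adjusted p = 0.0141) and turned to -0.081 and -0.12 under the same rescalings. PBA1, the partner of ADD66 and not one of the 39, measured 47.9, 49.6 and 47.4 RPKM in the mutant, against 33.6, 25.4 and 24.2 RPKM in WT (0.79 ± 0.12 SE, limma adjusted p = 0.00283).

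The order of the levels among the genes was much the same in both strains. Per length, the mean level of the 33 subunits ran from 73.3 RPKM for RPN11 to 187 RPKM for PRE1 in mms21RINGD, and from 53.4 RPKM for RPN11 to 126 RPKM for PRE9 in WT. The SD of the log2 mean levels over these 33 genes was 0.32 in the mutant and 0.34 in WT. As a description over the same genes, which share libraries and depth, the log2 levels in mms21RINGD and WT correlated with a Pearson r of 0.95 and a Spearman rho of 0.94. The core genes had a median of 156 RPKM in mms21RINGD and 108 RPKM in WT, above the ATPase genes, at 102 RPKM in the mutant and 70.4 RPKM in WT. RPN4 and its 5 companions stood lower, with medians of 35.5 RPKM in the mutant and 32.7 RPKM in WT. The log2 difference showed little relation to gene length over the 33 subunits (Pearson r 0.26, Spearman rho 0.11).

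WT replicate 1 lay above both other WT libraries in all 33 subunits, and between them and the mutant in 32 of these, SEM1 being the exception. The median step of WT replicate 1 above the mean of WT replicates 2 and 3 was 0.43 on the log2(RPKM + 1) scale over the subunits and 0.15 over all features. The step of mms21RINGD above the same libraries was 0.69 over the subunits and 0.29 over all features. RPN4 did not share the step of WT replicate 1. There its level was 21.9 RPKM, between the 22.4 and 21.1 RPKM of the other WT libraries, a step of 0.0073, while its step in the mutant was 0.62. BLM10 did likewise, with a step of 0.027 in WT replicate 1 and 0.38 in the mutant. The steps of IRC25 and POC4 in WT replicate 1 were small too, 0.062 and 0.065, with -0.0056 and -0.16 in the mutant. The part of WT replicate 1 in the calls was measured by leaving it out: 37 of 39 genes then rose, SEM1 and ADD66 among them, and the median log2 difference was 0.67, beside 57.4% of all features called higher and a median of 0.29.

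**Figure D3:**
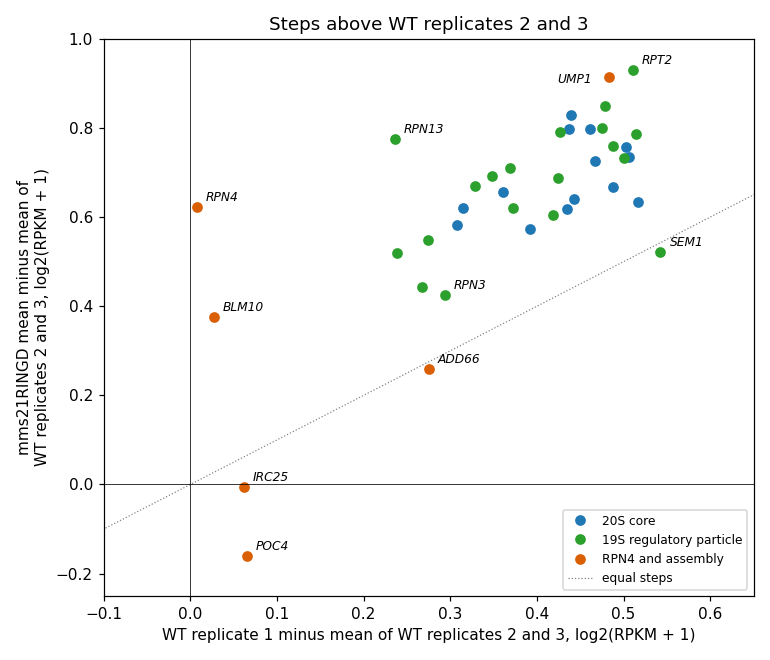
Step of the mms21RINGD mean (y axis) and of WT replicate 1 (x axis) above the mean of WT replicates 2 and 3, in log2(RPKM + 1), for each of the 39 genes, coloured by role, with a dotted line of equal steps. The subunits lie between 0.24 and 0.54 on the x axis, and RPN4 and BLM10 lie near 0 there and above it on the y axis.

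Members with the exact element and members without it both rose for the most part. The 27 with GGTGGCAAA in their window all rose, with a median log2 difference of 0.57. Of the 12 without it 8 rose and 1 fell, with a median of 0.41, against 42.7% and 10.9% of all features, and this group holds all 6 of RPN4 and the assembly genes. Among the remaining subunits of this group, RPN13 and RPN10 had no match of either form and rose by 0.70 and 0.59, SEM1 had none either and was not called (0.34, limma adjusted p = 0.0974), while PRE5, PUP1 and RPN8, with A in the first position, rose by 0.49, 0.46 and 0.35. No test was made between these groups, which were described with their results known.

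Outside the 39, 45 tested genes had GGTGGCAAA in their window, and 34 rose and none fell, against 42.7% and 10.9% of all features, with a median log2 difference of 0.54. Quantile normalization put some of these 34 below 0, the lowest at -0.16, and by the median of ratios the lowest stood at 0.014. Calls of these genes under the rescalings are not counted here. For 8 of the 45 the same site also stood in the window of a member, and 5 of these rose. Of the other 37, 29 rose, with the same median of 0.54, and without the 5 that are also among the ubiquitin-proteasome genes below 24 of 32 rose, with a median of 0.47. Of the named ones, TMC1, a zinc finger protein gene, measured 172 ± 9.31 RPKM in mms21RINGD and 59.1 ± 13.3 RPKM in WT (SD, n = 3 each; log2 difference 1.54 ± 0.15 SE, limma adjusted p = 0.000431). MPO1, which shares its site with SCL1, measured 28.0 ± 1.00 RPKM in the mutant and 14.96 ± 2.48 RPKM in WT (SD, n = 3 each; 0.87 ± 0.12 SE, limma adjusted p = 0.0015). BDF2, a bromodomain protein gene, rose 1.47-fold, ACS1, of acetyl-CoA synthetase, 1.87-fold, and HUA1 1.82-fold. YCL042W, SDH9, YBR284W and ECM12 rose 4.83-fold, 5.66-fold, 4.48-fold and 2.17-fold, the last 3 with mean levels of 1.21 to 4.02 RPKM in WT. YCL042W overlaps YCL040W and ECM12 overlaps YHR022C in the annotation, so their reads are uncertain.

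**Figure D4:**
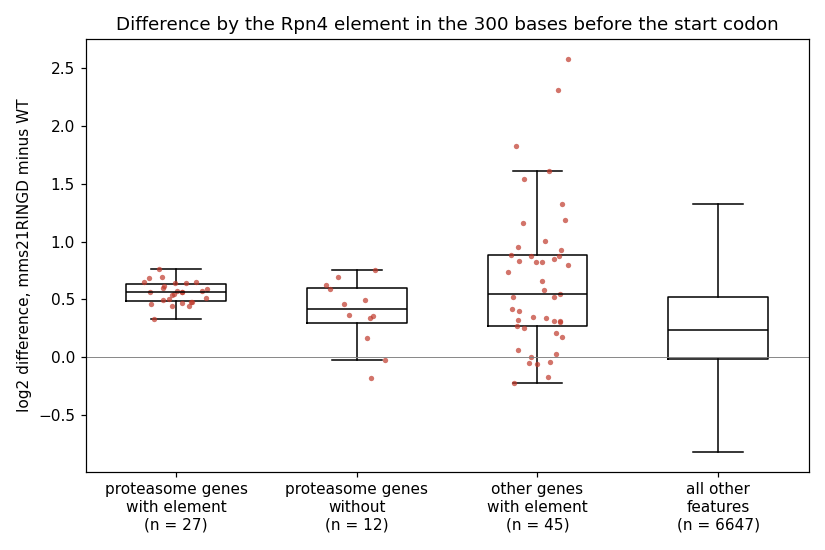
Log2 difference (mms21RINGD minus WT) of the 27 members with the exact element in their window, the 12 members without it, the 45 other genes with it and all other features tested. Points are genes (none drawn for the last group), boxes give the median and quartiles, and whiskers reach the last value within 1.5 times the box; the medians of the first groups are 0.57, 0.41 and 0.54.

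Other genes of the ubiquitin-proteasome pathway moved the same way in most cases. Of 36 genes listed by role 29 rose and 3 fell, against 42.7% and 10.9% of all features, with a median log2 difference of 0.58. By the median of ratios 24 were higher and 4 lower, and by quantiles 19 and 5. The 5 chaperones that assemble the base of the 19S particle all rose. TMA17, one of them that is known to be induced by stress, measured 65.2, 72.9 and 78.5 RPKM in mms21RINGD, against 25.4, 11.6 and 9.15 RPKM in WT, a 4.70-fold difference (2.28 ± 0.33 SE, limma adjusted p = 0.00226). Without WT replicate 1 its fold was 6.95. NAS2, NAS6 and HSM3 rose by 0.58, 0.58 and 0.49 on the log2 scale, but NAS2 and HSM3 were not called by quantiles (0.21 and 0.14). NAS6 lost its call without WT replicate 2 or any single mutant library, and NAS2 without mms21RINGD replicate 2. RPN14 rose by 0.27, lost its call by the median of ratios (0.035) and without the same libraries as NAS6, and turned to -0.14 by quantiles.

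All 6 genes of proteins that attach to the proteasome rose, against 42.7% of all features. ECM29, a scaffold that joins core and regulatory particle, measured 45.1, 45.9 and 45.2 RPKM in mms21RINGD, against 28.7, 17.0 and 14.98 RPKM in WT (log2 difference 1.18 ± 0.22 SE, limma adjusted p = 0.00556). SPG5, a proteasome regulator of stationary phase, rose 2.26-fold and HUL5, a ubiquitin ligase bound to the proteasome, 2.03-fold. UBP6, which removes ubiquitin at the proteasome, rose 1.54-fold, in the range of the subunits. FUB1 rose 1.77-fold and STS1, which tethers proteasomes in the nucleus, 1.32-fold, and the call of STS1 was lost under both rescalings (0.14 and 0.11) and that of FUB1 by quantiles (0.35) and without mms21RINGD replicate 3 or WT replicate 2. The receptors that carry ubiquitinated proteins to the proteasome rose unequally, DDI1 2.10-fold, DSK2 1.58-fold and RAD23 1.21-fold, RAD23 losing its call under both rescalings (0.027 and 0.068). RAD23 was also not called without any single library other than WT replicate 1.

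The Cdc48 complex extracts ubiquitinated proteins from their partners and passes them on. All 4 of its genes listed rose, against 42.7% of all features. CDC48 measured 325, 329 and 333 RPKM in mms21RINGD, against 233, 166 and 164 RPKM in WT (0.83 ± 0.14 SE, limma adjusted p = 0.00346). The cofactor genes UFD1, NPL4 and SHP1 rose 1.96-fold, 1.61-fold and 1.52-fold, SHP1 losing its call under both rescalings (0.38 and 0.41). SHP1 was also not called without any single library other than WT replicate 1.

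The ubiquitin genes split. UBI4, the stress-induced gene of tandem ubiquitin repeats, measured 214, 204 and 217 RPKM in mms21RINGD, against 63.9, 24.9 and 25.5 RPKM in WT, a 5.56-fold difference (2.59 ± 0.34 SE, limma adjusted p = 0.00152). Without WT replicate 1, the highest WT library, the fold was 8.41. RPL40A, RPL40B and RPS31, in which ubiquitin is fused to a ribosomal protein, fell. RPS31, the highest of them, measured 7292, 6827 and 7208 RPKM in mms21RINGD, against 7811, 8315 and 8749 RPKM in WT (-0.22 ± 0.05 SE, limma adjusted p = 0.00951), and RPL40A and RPL40B had log2 differences of -0.42 and -0.63. The ubiquitin parts of these 4 genes are near copies of each other, and how their shared reads were counted is not given in the sources used here.

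All 6 genes of ubiquitin activation, conjugation and recycling rose, against 42.7% of all features. The activating enzyme gene UBA1 rose 1.48-fold. The paralogous conjugating enzyme genes UBC4 and UBC5, between which shared reads could be split, differed in level and in size of rise. UBC4 measured 245 ± 9.94 RPKM in mms21RINGD and 174 ± 28.9 RPKM in WT, while UBC5 measured 41.7 ± 1.57 RPKM in the mutant and 15.1 ± 3.36 RPKM in WT (SD, n = 3 each). The ligase genes UFD4 and UBR1 rose 1.56-fold and 1.47-fold, and the deubiquitinase gene DOA4 1.43-fold, with DOA4 at -0.027 under quantile normalization and not called without any single library other than WT replicate 1.

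Around RPN4 the picture was mixed. Ubr2, Mub1 and Rad6 act together to mark Rpn4 for degradation. UBR2 rose 1.45-fold (0.49 ± 0.10 SE, limma adjusted p = 0.00805), though it was at -0.013 with quantile normalization. MUB1 measured 24.0 ± 0.771 RPKM in mms21RINGD and 22.6 ± 0.718 RPKM in WT, and RAD6 73.2 ± 1.47 RPKM in the mutant and 64.5 ± 4.88 RPKM in WT (SD, n = 3 each), neither of which passed (limma adjusted p = 0.271 and 0.0652). Without WT replicate 1 RAD6 was called higher (0.24, limma adjusted p = 0.00133). Of the transcription factors that activate RPN4, YAP1, of the oxidative stress response, measured 58.0, 58.9 and 59.7 RPKM in mms21RINGD, against 47.1, 30.3 and 29.6 RPKM in WT (0.74 ± 0.17 SE, limma adjusted p = 0.0127). PDR1, of drug resistance, rose by 0.40 on the log2 scale, a call lost under both rescalings (0.16 and 0.049). That call was also lost without any single library other than WT replicate 1. HSF1, of the heat shock response, and PDR3 were not called, with log2 differences of 0.36 and 0.11 (limma adjusted p = 0.0632 and 0.22). Without WT replicate 1 HSF1 was called higher (0.52, limma adjusted p = 0.000638). RAD6 and HSF1 were also called higher with the totals without structural RNAs, while by quantiles both were below 0 (-0.012 and -0.047).

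**Figure D5:**
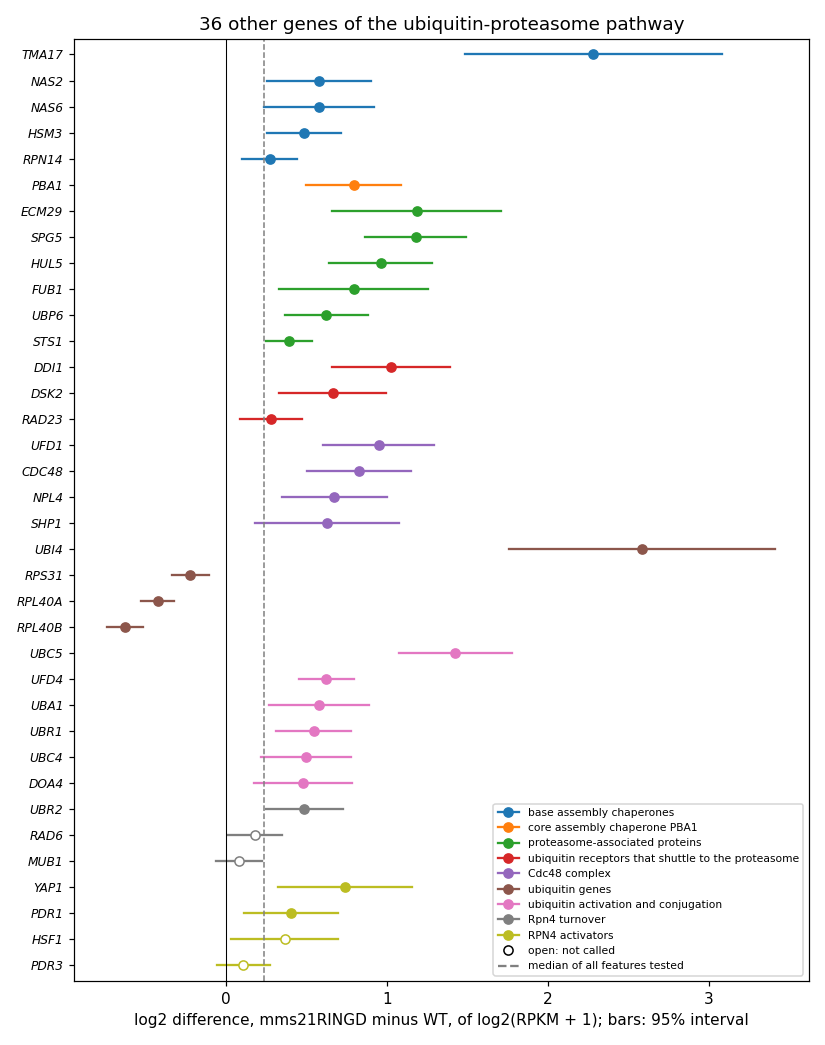
Log2 difference (mms21RINGD minus WT, on the log2(RPKM + 1) scale) of 36 other genes of the ubiquitin-proteasome pathway with unadjusted 95% intervals, coloured by list, with the median of all features, 0.24, as a dashed line. UBI4 and TMA17 lie farthest right at 2.59 and 2.28, and the ubiquitin fusion genes RPS31, RPL40A and RPL40B are left of 0.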

How the data were processed

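The authors deposited 1 table of RPKM values with 1 column for each of 6 libraries. Per the submitters' processing notes CASAVA 1.8.2, TopHat2 2.0.8, edgeR 3.8.6 and the build sacCer3 were used, in roles not stated there. Which program counted reads, and whether by strand, is not given in the sources used here. Antisense reads may therefore be included. Of 7126 features 6048 matched RefSeq R64 by systematic name and 114 by symbol. None of the 39 genes overlapped another gene of that annotation, and 964 unmatched features have no position here.

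Reads were recovered from RPKM and gene length as whole multiples of 1 step per library, within 0.02 of a read, for 99.8% of values above 0. Median squared differences between replicates were 1.65 to 20.4 times those of counting noise, so none was a copy.

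On the log2(RPKM + 1) scale, limma 3.58.1 (R 4.3.3, variance trend, no covariate) was run on the 6731 features that averaged 1 RPKM or more, two-sided with Benjamini-Hochberg adjustment. Differences are mms21RINGD minus WT and understate changes of low genes. Folds are ratios of mean RPKM. A number after ± is an SE beside a log2 difference and an SD beside RPKM. No permutation test is given for single genes, since its smallest exact p at 3 against 3 is 0.1. The fit was also run on simulated data, with few changed features and no library set apart as WT replicate 1 was. That run cannot show how sound the calls are here.

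The members, the lists and the motif were chosen with earlier results of these data known. All members, MMS21, the listed pathway genes and the 10 non-member genes with the element and the smallest p could be named.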

Additional observations from a re-analysis of the deposited data

How the results depend on the processing

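The counts of calls, the median of the 39 genes and the values of these genes and of the other pathway genes were recomputed under 16 alternatives, except DOA4 and UBR2 with the filter of 10 RPKM, which they did not pass. The counts of neighbours were not. The other genes with the element were also refitted, but are not counted in this section. Their values above are as deposited unless a rescaling is named. The 39 genes gave 23 to 37 higher calls when 1 library was left out, and the 14 core genes 7 to 14. Over all features these fits gave 1860 to 3864 higher and 433 to 1028 lower calls. With median-of-ratios scaling 26 of the 39 rose, 9 of them in the core, with a median log2 difference of 0.29 (also 0.29 above that of all features), beside 1713 higher and 1821 lower features (25.4% and 27.1%). Quantile normalization gave 32 of the 39, with a median of 0.38, against -0.10 for all features. Beside these stood 1369 higher and 2330 lower features, and 19 higher and 5 lower among the other pathway genes. Called higher under every alternative run were 22 of the 35: PRE1, PRE7, PRE8, PRE9, PRE10, PUP2, SCL1, RPT1, RPT2, RPT5, RPN1, RPN2, RPN5, RPN6, RPN7, RPN9, RPN10, RPN11, RPN12, RPN13, RPN4 and UMP1. The same count was not made over all features, so it cannot be said whether 22 is many. In single fits 20.3% of all features were called higher by quantiles and 57.4% without WT replicate 1. Signs turned in few cases: ADD66 (-0.081 with median-of-ratios, -0.12 with quantile), IRC25 (0.015 with totals without structural and mitochondrial RNAs), MUB1, RAD6 and PDR3 (-0.16, -0.070 and -0.13 with median-of-ratios, -0.26, -0.012 and -0.25 with quantile), and RPN14, DOA4, UBR2 and HSF1 (-0.14, -0.027, -0.013 and -0.047 with quantile). The cause was not tested. With the replicate number as a block 33 of the 39 rose, beside 2250 of all features, and the calls of PUP1, RPN3 and POC4, and of RPN14, RAD23 and PDR1 among the other pathway genes, were lost. Deviations of same-numbered libraries from their group means correlated at -0.14, 0.046 and -0.096. With 3 libraries in a group, and WT replicate 1 far from the others, these values cannot decide whether the numbers pair the samples. The labels do not say. The lowest count behind any value of the 39 genes was 198 reads, for POC4.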

Other observations

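The genes that start next to proteasome genes and run the other way were read as a further description. For 24 of the 39 the nearest upstream neighbour was a divergent protein-coding gene outside the set that was tested, with a median of 362 bases between the start codons. Of these neighbours 10 rose and 3 fell, against 42.7% and 10.9% of all features, with a median log2 difference of 0.11, while the proteasome genes of the same pairs had a median of 0.53. Where the proteasome gene had the exact element, 7 of 15 neighbours rose and 2 fell, beside the same 42.7% and 10.9% of all features. The median log2 difference of these 15 was 0.12, against 0.24 for all features. Neighbours were named after their values were seen. YPI1, which diverges from RPN11, had a log2 difference of 1.16 ± 0.27 SE (limma adjusted p = 0.012). RPL11A, a ribosomal protein gene that diverges from PRE2 and whose near copy RPL11B may share its reads, fell by 0.60 on the log2 scale. The difference between neighbours and proteasome genes was not tested.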
